A study of Mus musculus with 6 samples.

Results

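Collagens and the proteins that assemble, bind, crosslink and remodel them were followed through 37 genes, taken by symbol from the mouse annotation GENCODE M21, out of 21730 annotated genes with a read. They were sorted by role into 5 fibrillar collagens, 4 other interstitial collagens, 11 basement membrane genes, 8 matrix glycoproteins and elastic fibre genes, 3 small leucine-rich proteoglycans, 4 proteases and protease inhibitors, and 2 genes of collagen folding and crosslinking. The tissue was interscapular brown fat, a heat-producing depot, from 20-week-old male wild-type C57BL/6N mice. Poly(A) RNA was read as long molecules by Nanopore direct cDNA sequencing, which copies RNA without PCR. Control mice 2, 9 and 14 were kept at 22 to 24 °C, and cold mice 4, 11 and 15 were housed singly at 4 °C for 24 h. The labels do not state whether the control mice were also housed singly, so cold and single housing cannot be told apart if they were not.

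The extracellular matrix of fat has an interstitial and a pericellular part. Type I, III and V collagens form the fibrils between cells, type VI collagen forms a beaded network, and both are made largely by fibroblasts and preadipocytes. The basement membrane is a thin sheet of type IV collagen, laminin and nidogen that surrounds every adipocyte and lines the capillaries. Collagen chains are hydroxylated and folded into helical trimers in the endoplasmic reticulum with the help of the chaperone Serpinh1, are crosslinked outside the cell by lysyl oxidase, and are cut by metalloproteases that the Timp proteins inhibit.

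A few sequences show how the genes that changed are laid out, and the upstream stretches are given because the data bear on genes that moved together or in opposite directions. Col4a1 and Col4a2 lie head to head on chromosome 8, on opposite strands, and their first exons overlap by 22 bases. A CCAAT box, written in capitals, lies 32 to 28 bases before the start of Col4a2, at chr8:11312761-11312790 on the plus strand of GRCm38. The printed stretch also lies inside the annotated Col4a1 gene, which runs on the other strand.
Col4a2 upstream site: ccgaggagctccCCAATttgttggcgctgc
The 250 bases before the RefSeq start (build GRCm38.p6) are shown for Col3a1, which was lower in the cold, at chr1:45311288-45311537 on the plus strand, with a TATAAA match at positions -117 to -112 in capitals.
Col3a1 upstream: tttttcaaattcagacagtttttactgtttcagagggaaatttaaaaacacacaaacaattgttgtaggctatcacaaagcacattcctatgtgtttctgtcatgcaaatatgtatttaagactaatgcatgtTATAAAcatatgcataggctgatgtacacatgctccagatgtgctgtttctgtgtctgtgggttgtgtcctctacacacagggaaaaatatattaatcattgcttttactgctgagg
The same stretch is shown for Serpinh1, which was higher in the cold, at chr7:99353240-99353489 on the minus strand, with a GGGCGG match at positions -37 to -32 in capitals.
Serpinh1 upstream: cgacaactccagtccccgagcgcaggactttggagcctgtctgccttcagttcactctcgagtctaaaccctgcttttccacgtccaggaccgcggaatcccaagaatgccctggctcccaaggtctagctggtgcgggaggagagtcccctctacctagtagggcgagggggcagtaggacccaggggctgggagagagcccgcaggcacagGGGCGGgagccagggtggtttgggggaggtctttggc
Of the bases in these stretches 35.2% were G or C before Col3a1 and 63.6% before Serpinh1. Motifs were searched on both strands in 26 upstream stretches of 23 members found in the RefSeq table. GGGCGG was present in 14 of the 26 (53.8%) and in 32.7% of all 32851 stretches of the same length, CCAAT in 7 (26.9%) against 33.8%, and TATAAA in 2 (7.69%) against 12.4%. The heat shock half-site pair GAANNTTC was present in 2 (7.69%) against 6.69%, and TTCNNGAA in none of the 26 against 7.17%. These matches describe letters in a window.

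Depth ranged from 1657985 to 2238056 counted reads per mouse, so that 3 reads corresponded to 1.34 to 1.81 CPM before library scaling (CPM is the read count per library total, multiplied to a common scale). The share of reads from mitochondrial genes was 29.7 to 32.5% in control and 27.6 to 29% in cold mice, without overlap, and a fit without those genes called 5 members higher and 5 lower. Reads from skeletal muscle genes differed widely between mice: the summed level of 14 muscle markers was 96 to 674 CPM in control mice and 302 to 3683 CPM in cold mice, highest in cold mice 15 and 11 and lowest in control mouse 2. Each count of called members was therefore also made without control mouse 2 and cold mouse 15. Values per mouse are CPM in the order 2, 9, 14 for control and 4, 11, 15 for cold. A gene is said to have risen, fallen or been called where its Benjamini-Hochberg adjusted p from edgeR's quasi-likelihood test over all genes was under 0.05, and fold changes are cold over control on the log2 scale.

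In the cold, 5 of 31 tested matrix genes rose and 5 fell. Col4a1, Col4a2, Eln, Timp4 and Serpinh1 rose, by 1.49 to 1.92-fold, and Col1a1, Col1a2, Col3a1, Col6a2 and Lama4 fell, by 1.47 to 2.02-fold. The 10 called genes were 32.3% of the tested members. Over all 8684 tested genes 20.0% were called, 10% as higher (869 genes) and 10% as lower (870 genes), so the members' share lay above the background in both directions, as a description of a list chosen with results of these data known. The median log2 fold change of the 31 genes was -0.18, against 0.00 over all tested genes, with 14 positive and 17 negative. The groups did not overlap for 15 of the 31 (48.4%), compared with 35.1% of all tested genes. In bulk tissue, fewer cells of a type and less RNA per cell cannot be told apart.

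The other 6 members had too few reads for the test, between 19 and 52 over all mice. They were Col5a1, Col14a1 (a collagen that binds fibril surfaces), Lama2, Nid2, Fbn1 (fibrillin, the scaffold of elastic fibres) and Mfap5 (a microfibril protein), at group means of 1.52 to 5.03 CPM. Without control mouse 2 and cold mouse 15, 4 members were higher and 3 lower, because Eln, Col1a2 and Lama4 missed the threshold. The count of lower members was 1 without control mouse 9, and 3 without control mouse 2 or without cold mouse 11. DESeq2 called the same higher members except Eln, and of the lower members Col3a1 alone. Col3a1, Col4a1, Col4a2, Timp4 and Serpinh1 were called under all 19 alternatives run.

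**Figure D1:**
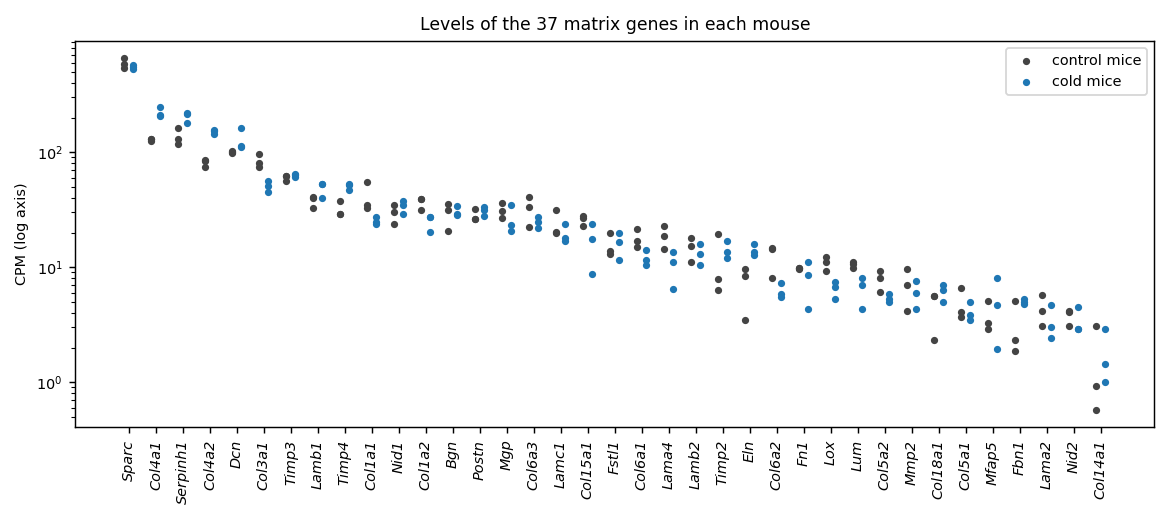
Level of each of the 37 matrix genes in each mouse, in CPM on a log axis, sorted by the mean over the 6 mice (grey, control mice; blue, cold mice). Sparc lies above all others in every mouse, and the blue points of Col4a1, Col4a2 and Serpinh1 lie above the grey ones while those of Col3a1 lie below.

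Divided by the length of the most-read transcript, the control levels ran from 0.24 CPM per kilobase for Col14a1 to 257 for Sparc, a secreted collagen-binding protein. Serpinh1 (59.8), Dcn (56.9) and Mgp (50.7) followed, and Col4a1 (19.3), Col3a1 (15.1), Timp3 (12.8) and Col4a2 (12.6) came next. A long read stands for 1 molecule, so this division favours short transcripts. Undivided, the control means were 591 CPM for Sparc, 136 for Serpinh1, 128 for Col4a1, 100 for Dcn, 83.8 for Col3a1 and 81.1 for Col4a2. Mgp, with a transcript of 617 bases, stood at 31.3 CPM, rank 13 of the members. In cold mice the levels in CPM per kilobase were 240 for Sparc, 89.3 for Serpinh1 and 72.8 for Dcn. They were 33.4 for Col4a1, 23.4 for Col4a2 and 9.13 for Col3a1. Per kilobase, Col3a1 thus lay between Col4a1 and Col4a2 in control mice and below both in cold mice.

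**Figure D2:**
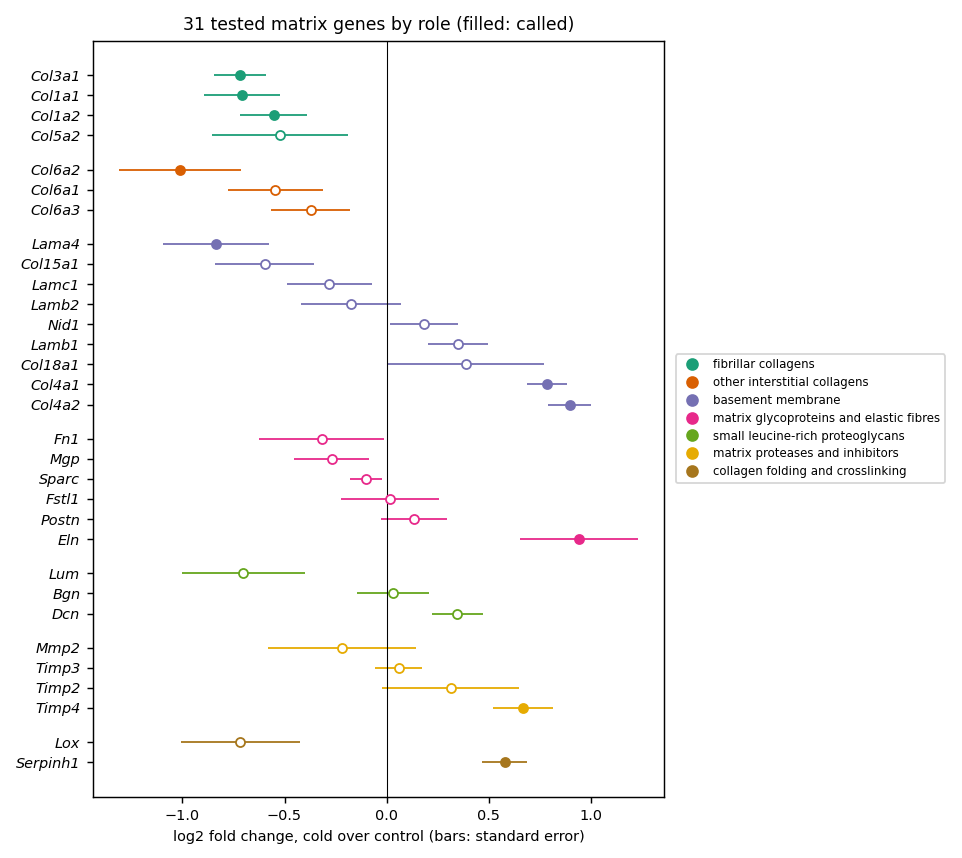
log2 fold change of the 31 tested genes, cold over control, with standard errors as bars, grouped by role. Filled points are the 10 called genes; the fibrillar and type VI collagens lie left of 0, and the basement membrane genes lie on both sides, from Lama4 at -0.83 to Col4a2 at 0.90.

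Col3a1, Col1a1 and Col1a2, 3 of the 4 fibrillar collagens that could be tested, fell in the cold (75%, against 20.0% of all tested genes). None rose, DESeq2 called 1 of the 4, the median was -0.63, and in all 4 the highest cold mouse lay below the lowest control mouse. Col3a1, the type III collagen chain (chromosome 1, 45311538 to 45349706, plus strand), stood at 80.4, 96.5 and 74.4 CPM in control mice and 50.7, 56.1 and 45.4 CPM in cold mice. The means were 83.8 ± 11.4 and 50.8 ± 5.34 CPM (SD, n = 3 each), and the log2 fold change was -0.72 (SE 0.13, adjusted p = 8.05e-05). Col1a1, the alpha 1 chain of type I collagen (chromosome 11, 94936224 to 94953042, plus strand), stood at 32.4, 55.6 and 34.9 CPM and at 23.7, 24.5 and 27.4 CPM. Control mouse 9 was the highest of the 6, and the groups did not overlap. The log2 fold change was -0.71 (SE 0.19, adjusted p = 0.00731), and it was -0.43 (adjusted p = 0.111) without control mouse 9 and -0.67 (adjusted p = 0.054) without cold mouse 4.

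Col1a2, the alpha 2 chain that pairs with Col1a1 (chromosome 6, 4504814 to 4541544, plus strand), stood at 38.8, 39.3 and 31.6 CPM in control mice and 20.3, 27.1 and 27.4 CPM in cold mice. Its log2 fold change was -0.55 (SE 0.17, adjusted p = 0.0163). This call was lost without control mouse 2 (adjusted p = 0.0694), without control mouse 9 (0.0637) and without cold mouse 4 (0.123). Col5a2, a chain of the type V collagen that sits inside type I fibrils, was not called at a log2 fold change of -0.52 (2 SE either side: -1.19 to 0.14, 76 reads in all). Col5a1 had 28 reads in control and 24 in cold mice. The chains kept their proportions within the spread between mice: the ratio of Col1a1 to Col1a2 reads was 1.12 ± 0.29 and 1.02 ± 0.13, and that of Col3a1 to Col1a1 was 2.12 ± 0.37 and 2.03 ± 0.33, in control and cold mice (SD, n = 3).

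Fibroblast and preadipocyte markers were measured beside the fibrillar collagens. Of 12 markers 5 could be tested, 2 rose (Ly6a and Gsn) and none fell (40% called, against 20.0% of all tested genes). The summed level was 288 to 380 CPM in control and 385 to 470 CPM in cold mice. Gsn, an actin-severing protein also made by other cells, held most of that sum, and without it the sum was 82.2 to 108 CPM and 113 to 136 CPM. Most of this remainder was Ly6a, at 60.2, 57.7 and 55.8 CPM in control and 88.9, 81.2 and 92 CPM in cold mice. The tested markers Pi16 and Clec3b were not called, at log2 fold changes of 0.206 and 0.505. Pdgfra, the receptor that defines these cells, stood at 3.03 and 3.29 CPM as group means, too low to test, and Tcf21 had no read. Igfbp6 had a log2 fold change of -0.30 (SE 0.70, adjusted p = 0.83), and Cd248, not tested, had group means of 3.43 and 2.29 CPM. The part of fibroblast number in the fall of Col3a1, Col1a1 and Col1a2 was not tested. With the fibroblast marker score as a covariate, all 5 lower members remained called. That score is the mean log2 CPM of the 5 tested markers, 2 of them called higher in the cold. The fit with it is therefore no measure of fibroblast number.

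Type VI collagen, whose 3 chains form the beaded filaments around adipocytes, had negative log2 fold changes in all 3 chains (median -0.54). Of these 1 was called as lower (33.3%, against 20.0% of all tested genes). Col6a2 (chromosome 10, 76595762 to 76623630, minus strand) stood at 8.1, 14.8 and 14.4 CPM in control mice and 7.25, 5.51 and 5.82 CPM in cold mice. Control mouse 2 lay close to cold mouse 4, and the groups did not overlap. The log2 fold change was -1.01 (SE 0.30, adjusted p = 0.0145) on 74 and 36 reads. The call was lost without control mouse 9 (adjusted p = 0.0687), control mouse 14 (0.0798) or cold mouse 11 (0.0597). Col6a1 had a log2 fold change of -0.55 (adjusted p = 0.10) with groups that did not overlap, and Col6a3 one of -0.37 (adjusted p = 0.188) with groups that did. Col6a3 was called without control mouse 14, at -0.60 (adjusted p = 0.0246).

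**Figure D3:**
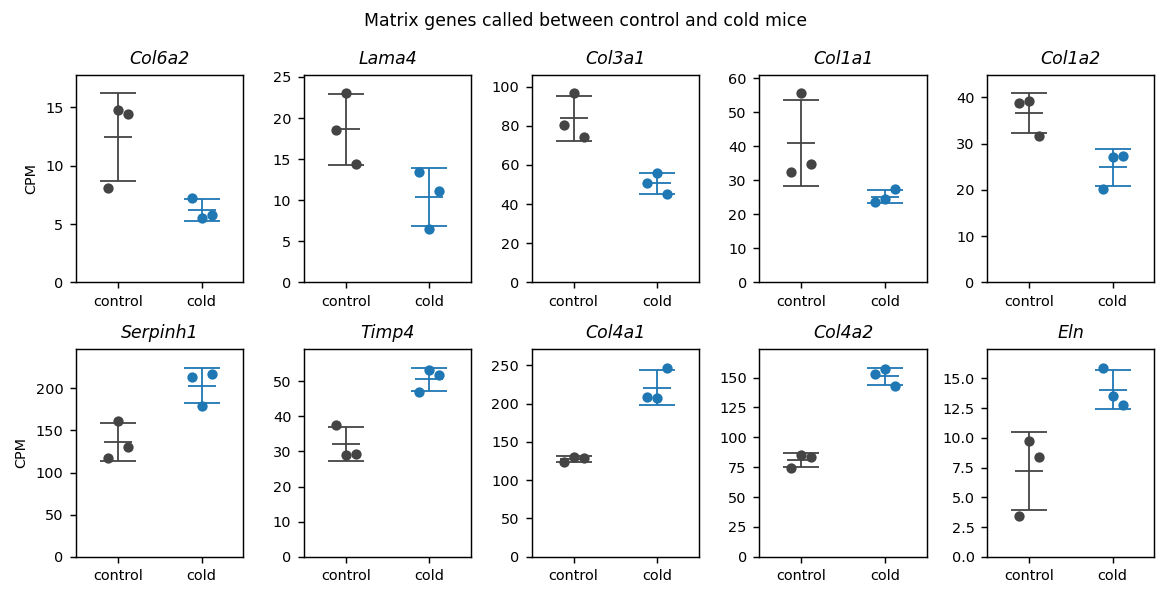
CPM of the 10 called genes in each mouse (points), with the group mean and SD (bars, n = 3), ordered by fold change. In every panel the points of the control and cold mice do not overlap; the upper row holds the genes that fell and the lower row those that rose.

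The basement membrane genes did not move as a block. Of 9 tested genes 2 rose and 1 fell (33.3% called, against 20.0% of all tested genes), with a median of 0.18. Both chains of type IV collagen rose. Col4a1 (chromosome 8, 11198423 to 11312826, minus strand) stood at 124, 131 and 129 CPM in control mice and 209, 207 and 247 CPM in cold mice. The means were 128 ± 3.62 and 221 ± 22.6 CPM (SD, n = 3 each), and the log2 fold change was 0.79 (SE 0.10, adjusted p = 3.04e-07). Col4a2 (chromosome 8, 11312805 to 11449287, plus strand), its partner chain, stood at 74.6, 85.2 and 83.3 CPM and at 153, 157 and 143 CPM. Its log2 fold change was 0.90 (SE 0.10, adjusted p = 9.84e-08). The ratio of Col4a1 to Col4a2 reads was 1.58 ± 0.07 in control and 1.47 ± 0.23 in cold mice (SD, n = 3), a shift of -0.11 on the log2 scale.

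Lama4, the laminin alpha chain of capillary and adipocyte basement membranes (chromosome 10, 38965515 to 39110188, plus strand), fell. It stood at 18.5, 23 and 14.4 CPM in control mice and 13.5, 6.51 and 11.1 CPM in cold mice. Cold mouse 11 was the lowest, and control mouse 14 lay less than 1 CPM above cold mouse 4. The log2 fold change was -0.83 (SE 0.26, adjusted p = 0.0206), and the call was lost without control mouse 2 (adjusted p = 0.055), control mouse 9 (0.121) or cold mouse 11 (0.149). The beta and gamma chains with which Lama4 assembles were not called: the log2 fold change was 0.35 for Lamb1 (adjusted p = 0.093), -0.18 for Lamb2 and -0.28 for Lamc1 (2 SE either side: -0.70 to 0.14). Lamb1 was called without cold mouse 11, at 0.48 (adjusted p = 0.0319), and with library size as the scaling, at 0.42 (adjusted p = 0.0441).

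Nid1, the nidogen that links laminin to type IV collagen, was not called at 0.18 (2 SE either side: -0.15 to 0.51). Col15a1 and Col18a1 are collagens of the basement membrane zone. Col15a1 stood at 27.8, 27 and 22.8 CPM in control mice and 23.7, 17.5 and 8.73 CPM in cold mice, with cold mouse 15 the lowest and the groups overlapping at cold mouse 4. Its log2 fold change was -0.60 (adjusted p = 0.0868), and it was called without cold mouse 4, at -0.94 (adjusted p = 0.0142), and with no filter on low counts (adjusted p = 0.0405). Col18a1, with 62 reads in all, was not called at 0.39 (2 SE either side: -0.38 to 1.15). Lama2 and Nid2 had 44 and 42 reads and were not tested, and Nid2 shares 437 bases with Rtraf on the other strand, a gene with 942 reads.

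Endothelial markers were measured beside the rise of type IV collagen. Of 14 markers 13 could be tested, 3 rose (Kdr, Esam and Cd36) and none fell (23.1% called, against 20.0% of all tested genes). The median was 0.18, with 10 positive and 3 negative. Tek, the angiopoietin receptor, had a log2 fold change of -0.66 with groups that did not overlap (adjusted p = 0.0508), and was called with a stricter filter on low counts (adjusted p = 0.0391) and with edgeR's bias-adjusted deviance (0.0484). Its relative Tie1 stood at -0.42 (adjusted p = 0.197). Pecam1 went the other way, at a log2 fold change of 0.415 (SE 0.152, adjusted p = 0.0527), and was not called. It stood at 38.2, 30.1 and 27.9 CPM in control and 41.5, 39.6 and 46.6 CPM in cold mice, without overlap. The summed level of the 14 endothelial markers was 1569 to 1648 CPM in control and 2280 to 2446 CPM in cold mice, most of it Cd36, a fatty acid transporter that adipocytes also make. Without Cd36 the sum was 410 to 428 CPM and 467 to 488 CPM. Cdh5, the cadherin that defines endothelium, had a log2 fold change of 0.13 (SE 0.12, adjusted p = 0.468), and the part of endothelial cell number in the rise of Col4a1 and Col4a2 was not tested.

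The long reads gave 2 main transcripts of Col4a1, and both rose. Col4a1-201, annotated as protein-coding, held 56.9% of the gene's reads and rose by 0.77 on the log2 scale (SE 0.12, adjusted p = 3.74e-06). Col4a1-208 held 41.1% and rose by 0.76 (SE 0.13, adjusted p = 3.1e-05). Over all 11699 tested transcripts 16.9% were called. Col4a1-208 is annotated as a target of nonsense-mediated decay, the pathway that destroys messages with an early stop. It begins 137 bases further in and carries an exon of 17 bases, its exon 50 of 53, at chr8:11204536-11204552 on the minus strand, which Col4a1-201 with its 52 exons lacks. The exon lies in coding sequence and its length is not a multiple of 3. It is printed in capitals between 6 bases of each neighbouring exon.
Col4a1-208 exon 50: tagcagCTTTCCTTGGAAAACAGgtgtgc
Col4a1-208 held 43.9, 45.3 and 35.6% of the gene's reads in control mice and 43.3, 38 and 41.5% in cold mice, so its share overlapped between groups. No source used here states how reads that end short of the start or of this exon were assigned.

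The ratio of fibrillar to basement membrane transcripts was lower in all 3 cold mice than in any control mouse. The summed CPM of the 5 fibrillar collagens was 164, 207 and 151 in control mice and 104, 118 and 109 in cold mice, and that of the 11 basement membrane genes was 363, 376 and 377 and then 534, 500 and 545. Their ratio was 0.451, 0.551 and 0.40 in control mice and 0.194, 0.235 and 0.201 in cold mice, a mean log2 difference of -1.14 (2.21-fold lower), and -1.13 when each gene was divided by its transcript length. The 3 cold values lay together and below all 3 control values. No test was run, since the genes were chosen with results known. The ratio of type I and III to type IV collagen reads alone was 0.771 ± 0.112 and 0.272 ± 0.021 (SD, n = 3), 2.82-fold lower. The shift rested in large part on the type IV chains: without Col4a1 and Col4a2, a variant chosen after seeing the data, it was -0.56, and with equal weight for each gene (mean log2 CPM) it was -0.52.

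**Figure D4:**
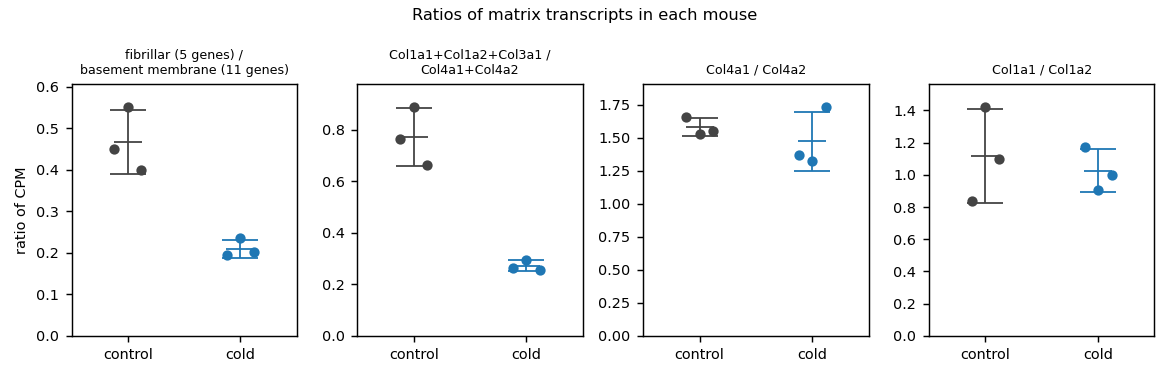
Ratios of CPM in each mouse (points) with group mean and SD (bars, n = 3): fibrillar over basement membrane genes, type I and III over type IV collagens, Col4a1 over Col4a2, and Col1a1 over Col1a2. The first 2 panels separate control from cold mice, at 0.40 to 0.551 against 0.194 to 0.235 in the first, and the last 2 overlap.

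Among the matrix glycoproteins and elastic fibre genes 1 of 6 tested genes rose and none fell, with a median of -0.04. The called share was 16.7%, against 20.0% of all tested genes. Eln, which encodes elastin (chromosome 5, 134702593 to 134747323, minus strand), stood at 3.47, 9.7 and 8.38 CPM in control mice and 15.9, 13.5 and 12.8 CPM in cold mice. Control mouse 2 was the lowest of the 6, and the groups did not overlap. The log2 fold change was 0.94 (SE 0.29, adjusted p = 0.0191) on 43 and 82 reads. It was 0.65 (adjusted p = 0.119) without control mouse 2 and 0.84 (adjusted p = 0.10) without cold mouse 4. It was 0.88 (adjusted p = 0.103) with the skeletal muscle score as a covariate and 0.85 (adjusted p = 0.0577) with the fibroblast score. Fbn1, the scaffold on which elastin is laid, had 18 and 29 reads and was not tested.

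Sparc, the most abundant member, stood at 583, 655 and 536 CPM in control mice and 548, 571 and 533 CPM in cold mice. The groups overlapped, and the log2 fold change of -0.10 (2 SE either side: -0.25 to 0.05) was the most narrowly bounded of the members. Fn1 (fibronectin, at -0.32), Mgp (an inhibitor of calcification, at -0.27), Postn (periostin, at 0.13) and Fstl1 (a secreted glycoprotein, at 0.02) were not called. Fstl1 shares 341 nt at 97.9% identity with a transcript of Xdh, so its reads are uncertain, and its direction changed under 8 of 19 alternatives.

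None of the 3 small leucine-rich proteoglycans, which coat collagen fibrils, was called by edgeR or by DESeq2, and 2 of them, Lum and Dcn, had an unadjusted p under 0.05 in edgeR. Lum, lumican, had the largest change, at 11, 10.7 and 9.77 CPM in control mice and 4.35, 8.02 and 6.99 CPM in cold mice. The groups did not overlap, and the log2 fold change was -0.70 (2 SE either side: -1.30 to -0.10, adjusted p = 0.101). Dcn, decorin, stood at 101, 97.5 and 103 CPM and at 110, 113 and 162 CPM, with cold mouse 15 well above the rest. Its log2 fold change was 0.35 (SE 0.13, adjusted p = 0.0563), and it was called without cold mouse 4 (adjusted p = 0.0253), without cold mouse 11 (0.0275), with library size as the scaling (0.0408) and with no filter on low counts (0.0207). Bgn, biglycan, had a log2 fold change of 0.03 (2 SE either side: -0.32 to 0.38) and changed direction under 6 of 19 alternatives.

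Nearly all decorin reads were assigned to 2 transcripts that differ in their first exon. How reads that end short of that exon were assigned is stated in no source used here. Each first exon is 181 bases of untranslated sequence, and the starts lie 2758 bases apart on chromosome 10. Dcn-202, from the downstream start, had 77, 78 and 87 reads in control mice and 118, 106 and 153 reads in cold mice. It rose by 0.66 on the log2 scale (SE 0.17, adjusted p = 0.0058), while Dcn-201 had a change of 0.06 (SE 0.14, adjusted p = 0.832). The share of Dcn-202 was 44.3, 40.8 and 39.2% in control and 52, 47.1 and 54.8% in cold mice, without overlap. The test of the difference itself, edgeR's diffSpliceDGE over all genes, did not call Dcn, at an adjusted p of 1 by the Simes method and 0.468 by edgeR's gene-level F test.

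In that test 7 members had at least 2 tested transcripts (Col4a1, Col15a1, Dcn, Lamc1, Postn, Serpinh1 and Sparc), and 0 were called. By edgeR's Simes method 0 had an unadjusted p under 0.05, and the F test called 0 with 1, Dcn, under 0.05 unadjusted. Over all 2568 genes 5 (0.195%) were called. Serpinh1 had 4 tested transcripts, each between 20.1 and 33.4% of its reads, with log2 fold changes of 0.46 to 0.85.

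Of the 4 proteases and inhibitors 1 rose (25% called, against 20.0% of all tested genes). Timp4, the metalloprotease inhibitor found mainly in fat, heart and brain (chromosome 6, 115241892 to 115252205, minus strand), stood at 37.6, 29.1 and 29.3 CPM in control mice and 46.9, 53.1 and 51.8 CPM in cold mice. The means were 32 ± 4.86 and 50.6 ± 3.29 CPM (SD, n = 3 each), the groups did not overlap, and the log2 fold change was 0.67 (SE 0.15, adjusted p = 0.00107). Timp4 overlaps Syn2 on the opposite strand by 90 bases, and Syn2 had 47 reads against 477 for Timp4. Timp3, the matrix-bound inhibitor, stood at 56.7 to 62.4 CPM in control and 61.1 to 64.1 CPM in cold mice, and its log2 fold change was 0.06 (2 SE either side: -0.17 to 0.29). Timp3 and Syn3 lie on opposite strands and share 1733 bases, with 719 and 357 reads, and no source used here states whether strand was used in counting. Timp2 (0.31) and the gelatinase Mmp2 (-0.22) were not called, but Timp2 was called without control mouse 9, at 0.95 (adjusted p = 0.0291).

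The 2 genes of collagen folding and crosslinking differed in direction. Serpinh1, the collagen-specific chaperone of the endoplasmic reticulum (chromosome 7, 99345376 to 99353239, minus strand), rose. It stood at 117, 161 and 130 CPM in control mice and 214, 179 and 217 CPM in cold mice, with means of 136 ± 22.5 and 203 ± 20.8 CPM (SD, n = 3 each). The log2 fold change was 0.58 (SE 0.11, adjusted p = 0.000308). Against its client chains, Serpinh1 reads per type I and III collagen read went from 0.845 ± 0.077 to 2.03 ± 0.32, and per type IV collagen read from 0.649 ± 0.084 to 0.547 ± 0.051 (SD, n = 3). On the log2 scale these shifts were 1.26 and -0.24, given with no test. Lox, lysyl oxidase, which crosslinks collagen and elastin, stood at 12.2, 11.2 and 9.31 CPM and at 6.76, 7.51 and 5.24 CPM. The groups did not overlap, and at a log2 fold change of -0.72 (SE 0.29) Lox was not called (adjusted p = 0.0825). It was called on flow cell 1 alone, at -1.18 (adjusted p = 0.0304).

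The wider collagen processing list, with the hydroxylases, isomerases and propeptidases, had 13 tested genes of 28 annotated. Of these 3 rose and 2 fell (38.5% called, against 20.0% of all tested genes), with a median of 0.28, and DESeq2 called none of them. P4ha1, a catalytic subunit of collagen prolyl hydroxylase, stood at 8.1, 8.68 and 3.72 CPM in control mice and 15, 11.5 and 13.4 CPM in cold mice, a log2 fold change of 0.98 (SE 0.30, adjusted p = 0.0169). The call for P4ha1 was lost without control mouse 14 (adjusted p = 0.15) or cold mouse 4 (0.0909). P4ha2, its sister subunit, named here although it lay under the naming level of 10 CPM, rose by 1.93 (SE 0.50, adjusted p = 0.00501) from 1.51 to 6 CPM, and was not called without cold mouse 4 (adjusted p = 0.0514). Ppib, the prolyl isomerase of the endoplasmic reticulum, rose by 0.30 (SE 0.11, adjusted p = 0.0461), a call lost without any of control mice 2 and 9 and cold mice 4 and 15 (adjusted p = 0.19, 0.117, 0.128 and 0.103). Crtap, a partner of the prolyl hydroxylase that acts at another position, fell from 30.7 ± 0.57 to 20.1 ± 1.32 CPM (SD, n = 3), a log2 fold change of -0.60 (SE 0.17, adjusted p = 0.011). Sparcl1, a relative of Sparc in this list though not a processing enzyme, fell by 0.37 on the log2 scale (adjusted p = 0.0244). It was not called without any 1 of 5 mice, all but control mouse 9 (adjusted p between 0.0556 and 0.108).

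Other basement membrane genes moved in both directions. Of 8 tested 2 rose and 2 fell (50% called, against 20.0% of all tested genes), with a median of -0.08. Tinagl1, a secreted protein that binds basement membranes, stood at 36.5, 34.2 and 39.1 CPM in control mice and 84.5, 84.2 and 98.4 CPM in cold mice. Its log2 fold change was 1.28 (SE 0.12, adjusted p = 3.57e-09). Lamb3, a laminin beta chain under 10 CPM, rose by 1.98 (SE 0.43, adjusted p = 0.00105). Smoc1, a calcium-binding relative of Sparc found in basement membranes, stood at 27.8, 35.7 and 25.6 CPM and at 11.1, 10 and 10.5 CPM, a log2 fold change of -1.49 (SE 0.21, adjusted p = 4.19e-06). Smoc2, its sister gene, fell from 13.9 to 6.75 CPM at -1.03 (SE 0.28, adjusted p = 0.00762), a call lost without control mouse 9 (adjusted p = 0.0539) or cold mouse 4 (0.0574). Among other collagens 3 of 21 could be tested and 1 was called (33.3%, against 20.0% of all tested genes). Col5a3, a further type V chain under 10 CPM, fell by 1.36 on the log2 scale (SE 0.34, adjusted p = 0.00394). This call was lost without control mouse 9 (adjusted p = 0.0595). DESeq2 did not call Smoc2 (adjusted p = 0.181) or Col5a3 (0.118).

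Of 16 other proteases and inhibitors tested, 3 rose and 1 fell (25% called, against 20.0% of all tested genes), with a median of -0.07. Adam12, a metalloprotease with a disintegrin domain, stood at 37.6, 17.4 and 19.5 CPM in control mice and 70.5, 78.1 and 57.6 CPM in cold mice (log2 fold change 1.5, SE 0.26, adjusted p = 0.00446). Adamts1, which cuts proteoglycans such as versican, rose from 10.5 ± 4.66 to 24.9 ± 9.11 CPM (SD, n = 3), at 1.24 (adjusted p = 0.0189), and was not called without control mouse 2 (adjusted p = 0.0997). Of the lysosomal proteases, Ctsl rose by 0.49 (adjusted p = 0.0061; 0.0515 without control mouse 2). Ctsb fell by 0.23 on the log2 scale (adjusted p = 0.013), which was lost without control mouse 14 (adjusted p = 0.0775) or cold mouse 4 (0.0707) and in DESeq2 (0.0826). None of 15 other matrix glycoproteins and proteoglycans was called by edgeR or DESeq2, with a median of 0.15 and 2 at an unadjusted p under 0.05.

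Among 16 tested matrix receptors 2 rose and none fell (12.5% called, against 20.0% of all tested genes), with a median of 0.11. Sdc4, a cell-surface heparan sulfate proteoglycan that binds fibronectin, stood at 57.3, 57.7 and 54 CPM in control mice and 189, 188 and 197 CPM in cold mice. Its log2 fold change of 1.76 (SE 0.10, adjusted p = 3.43e-14) had the smallest p among the matrix and pathway genes named here. Gpc1, a glypican under 10 CPM, rose by 1.68 (SE 0.43, adjusted p = 0.00449), and DESeq2 did not call it (adjusted p = 0.0984). In TGF-beta signalling, a known inducer of fibrillar collagen genes, 3 of 15 tested genes rose and 1 fell, with a median of 0.21. The called share was 26.7%, against 20.0% of all tested genes. Smad3, which carries the signal to the nucleus, stood at 6.36, 8.17 and 2.33 CPM and at 15.9, 25.5 and 30.3 CPM (log2 fold change 2.09, SE 0.33, adjusted p = 0.00014). Tgfbr2, the ligand-binding receptor, fell from 53.4 ± 9.66 to 24.7 ± 0.36 CPM (SD, n = 3), at -1.10 (SE 0.16, adjusted p = 3.96e-06). Eng, a co-receptor of endothelial cells, rose by 0.60 (adjusted p = 0.00016), and Skil, a repressor of Smad-driven transcription, rose by 0.65 (adjusted p = 0.00312). Skil was not called by DESeq2 (adjusted p = 0.0857) or on flow cell 2 alone (0.279), and Eng was not called on flow cell 2 alone (0.0579).

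Markers of cells that could supply matrix transcripts were read in the same mice. Of 11 tested pericyte and smooth muscle markers 1 fell, Rgs5 (9.09% called, against 20.0% of all tested genes). Rgs5 went from 128 ± 13.5 to 77.3 ± 5.33 CPM (SD, n = 3), at a log2 fold change of -0.72 (SE 0.11, adjusted p = 1.16e-05). The sum of this marker list was 353 to 383 CPM in control and 335 to 440 CPM in cold mice. Des, desmin, which skeletal muscle also makes, stood at 31.2, 30.1 and 47.9 CPM and at 44.9, 71.1 and 150 CPM. Without Des the sum was 316 to 352 CPM in control and 278 to 290 CPM in cold mice, without overlap. Rgs5 is part of that sum and was its only called marker. The 11 tested markers, with Des, had a median log2 fold change of 0.08, with 6 positive and 5 negative. Ly6a, from the fibroblast and preadipocyte list, rose by 0.59 (SE 0.12, adjusted p = 0.00027). Gsn rose by 0.40 (adjusted p = 0.0134), which was lost without control mouse 2 or 14 or cold mouse 11 or 15 (adjusted p between 0.0556 and 0.0775). The endothelial receptor Kdr rose by 0.63 (adjusted p = 0.000158), Cd36 by 0.66 (adjusted p = 4.81e-09), and Esam by 0.57 (adjusted p = 0.0132; 0.0606 without control mouse 9, 0.0693 without control mouse 14 and 0.231 in DESeq2). Kdr was not called on flow cell 2 alone (adjusted p = 0.167). Macrophage and Schwann cell markers had no call in edgeR or DESeq2 among 5 tested genes each (1 and 0 at an unadjusted p under 0.05 in edgeR), at summed levels of 69.3 to 101 and 157 to 209 CPM in control mice and 102 to 133 and 150 to 186 CPM in cold mice. Lymphocyte markers summed to at most 10.2 CPM in any mouse and mesothelial markers to at most 2.89 CPM, with Msln, Upk3b, Krt19 and Wt1 at 0 reads.

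All 13 tested skeletal muscle markers had positive log2 fold changes, with a median of 2.20. None was called by edgeR, with 0 at an unadjusted p under 0.05, and 1 was called by DESeq2. With edgeR's robust estimation turned off, the muscle markers Acta1 (adjusted p = 0.0393) and Myh4 (0.0288) were called, as was Des (0.0153). Acta1, skeletal muscle actin, stood at 11.6, 72 and 121 CPM in control mice and 43.5, 236 and 666 CPM in cold mice, so the groups overlapped. With the muscle score as a covariate, Col1a2, Lama4 and Eln missed the threshold (adjusted p = 0.055, 0.174 and 0.103), and 7 members remained called. Of the pathway genes, Crtap, Ctsl, Gpc1 and Skil also missed it with that covariate (adjusted p = 0.0878, 0.0911, 0.0912 and 0.13), as did Ppib (0.252) and Sparcl1 (0.168).

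All 10 brown adipocyte markers could be tested, and 2 rose and 2 fell (40% called, against 20.0% of all tested genes). The median was 0.01. Ucp1, the uncoupling protein, stood at 9700 to 11228 CPM in control and 13665 to 13889 CPM in cold mice and rose by 0.37 (adjusted p = 2.41e-05). Fabp4, a fatty acid binding protein, rose by 0.51 (adjusted p = 9.91e-08). Adipoq, adiponectin, fell by 0.55 on the log2 scale (adjusted p = 5.67e-06). Lipe, hormone-sensitive lipase, fell by 0.29 (adjusted p = 0.00756), a call lost without control mouse 14 (adjusted p = 0.08), in DESeq2 (0.075), and with the muscle (0.0637) or the fibroblast (0.0539) covariate. Of 8 white adipocyte markers 5 could be tested and 3 rose (60% called, against 20.0% of all tested genes). The white marker sum was 112 to 176 CPM in control and 311 to 344 CPM in cold mice. Npr3, a natriuretic peptide receptor, rose by 1.66 (adjusted p = 2.79e-11) and Retn, resistin, by 0.81 (adjusted p = 5.63e-05). Nnat, neuronatin, rose by 1.70 (adjusted p = 0.00201), and missed the threshold with the muscle covariate (adjusted p = 0.118). Lep, leptin, stood at 6.36, 24.5 and 2.33 CPM in control and 4.35, 7.51 and 2.33 CPM in cold mice and was not called.

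**Figure D5:**
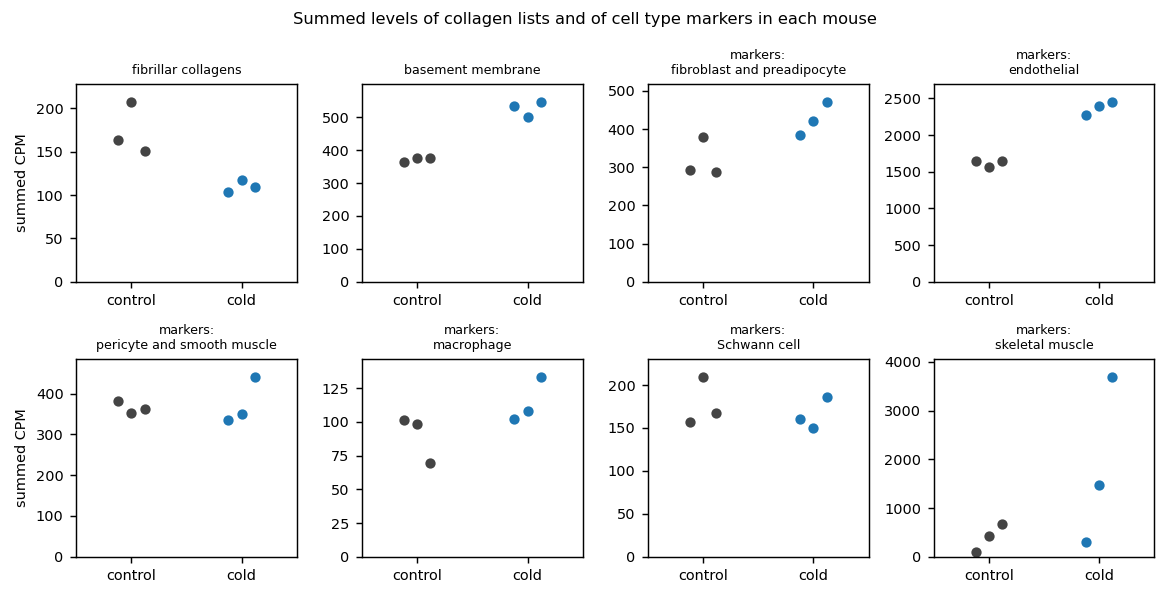
Summed CPM of the fibrillar collagens, the basement membrane genes and 6 lists of cell type markers in each mouse. Fibrillar sums lie at 104 to 118 CPM in cold mice against 151 to 207 CPM in control mice. Fibroblast marker sums, mostly Gsn and Ly6a, lie at 385 to 470 CPM in cold mice against 288 to 380 CPM in control mice. Skeletal muscle sums spread from 302 to 3683 CPM among cold mice.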

How the data were processed

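The authors deposited a table of raw read counts by transcript for each of 2 flow cells per mouse, in whole numbers and without normalization. Reads were mapped with minimap2 to GRCm38, per the submitters' processing notes; no source used here gives its version, the annotation, the rule for reads that fit several transcripts or the use of strand. The labels' extraction text names another fat depot, whereas their tissue fields name interscapular brown adipose tissue, which was followed.

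Transcripts were matched to GENCODE M21, leaving 9857 of 11789059 reads (0.0836%) unmatched and unused. Counts were summed over flow cells and over the transcripts of a gene, so n is mice. Within groups, pairs of libraries differed beyond sampling noise (chi-square per degree of freedom 2.09 to 3.42). Genes were tested with edgeR 4.0.16 in R 4.3.3 (glmQLFit with robust estimation, glmQLFTest, TMM, filterByExpr, 6 libraries, no covariate) and Benjamini-Hochberg adjustment over all genes; every adjusted p is from this test unless another is named. Transcript usage was tested with diffSpliceDGE, and DESeq2 1.42.0 was an alternative. CPM use library totals after TMM scaling, and intervals of 2 SE cover the fit's error only. Near-identical copies were sought with minimap2 2.31 (at least 200 nt at 95% identity), and overlapping genes from the annotation.

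The members and lists were chosen with earlier results of these data known. All members are accounted for, with values per mouse for called members and for the largest change in a role group without a call. Pathway lists give up to 3 called genes in each direction with a mean of at least 10 CPM, and others are named as outside that rule. Marker lists give their called genes and, for the lists with a call, the most abundant genes.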

Additional observations from a re-analysis of the deposited data

How the results depend on the processing

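The numbers of genes called (1739) and of members lower in the cold (5) depended on the fit. DESeq2 called 820 genes and 1 lower member, and flow cell 2 alone 889 genes and 1 lower member. Flow cell 1 alone called 3 lower members, of which Lox was gained and 2, Col1a1 and Col3a1, were among the 5. Col1a2, Col6a2, Lama4 and Eln were called on neither flow cell alone. The skeletal muscle covariate gave 1147 genes and 3 lower members. Without control mouse 2 and cold mouse 15 together there were 1167 genes and 3 lower members. With edgeR's bias-adjusted deviance, added after seeing the data, 847 genes were higher and 848 lower, with the same 10 members called. Leaving out 1 mouse at a time gave 1376 to 1486 genes, 4 to 7 higher members and 1 to 5 lower members. With library size as the only scaling the median log2 fold change of all genes was 0.07, and 1086 genes were higher and 630 lower, against 869 and 870. The ratio difference of -1.14 moved to -0.52 with equal weight per gene and to -0.56 without Col4a1 and Col4a2, and lay between -1.25 and -1.02 with 1 mouse left out. No member was called for transcript usage under any of the 11 alternatives run. Among the genes refitted, directions changed only in genes that were not called. On flow cell 1 alone Timp3 was at -0.065. On flow cell 2 alone Lamb2 was at 0.044, Fstl1 at -0.38 and Bgn at -0.13. With the muscle covariate Fstl1 was at -0.067, Bgn at -0.21 and Acta1, itself part of the muscle score, at -0.30. With the fibroblast covariate Fstl1 was at -0.20, Bgn at -0.14 and Timp2 at -0.067. Without control mouse 2 and cold mouse 15 Fstl1 was at -0.22, Bgn at -0.22, Timp2 at -0.068 and Pmp22 at -0.047. With 1 mouse left out at a time, Fstl1 ranged from -0.15 to 0.227, Bgn from -0.148 to 0.182, Mmp2 from -0.507 to 0.108 Pmp22 from -0.013 to 0.265 and Igfbp6 from -1.187 to 0.184. With the fibroblast covariate Igfbp6 was called, at an adjusted p of 0.0485, but Igfbp6 is itself part of that score, so this fit is circular for it. No paired analysis was possible because the mouse numbers in the labels are not shared between the groups. The lowest SE of a tested member was 0.08 and the highest 0.38, so small changes of members with few reads were not detectable at this depth.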
